A study of Mus musculus with 8 samples.

Results

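Respiratory complex I subunit genes were the genes whose whole symbol in the deposited expression table is Nduf, then a, b, c, s, v or ab, then a number, with nothing after it. The Ndufaf genes, which encode assembly factors, were left out. By this rule 38 of the 26171 lines of the table were members. The study sequenced polyadenylated RNA from the rear part of the tail bud, presomitic mesoderm included, of mouse embryos at embryonic day 8.5. Embryos were matched at 4 to 5 somites. The labels give 4 libraries as WT and 4 as EPOP KO, and do not describe the knockout allele, the strain or whether embryos were pooled. EPOP is a partner protein of PRC2, the Polycomb complex that methylates histone H3.

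No expression level and no difference between the genotypes is reported for these genes. The table had no header line, and its 8 columns of values carried no names. The name of the table lists 8 labels, but nothing in the table ties a column to one of them except its position, and columns were not assigned by position or by their values. The members are therefore described by what the reference annotation and the promoter sequences hold. Every value below is a property of the mouse reference, not a measurement in the embryos.

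Complex I, NADH:ubiquinone oxidoreductase, is the entry point of electrons from NADH into the mitochondrial respiratory chain. It passes them through a flavin and a row of iron-sulfur clusters to ubiquinone and pumps protons across the inner membrane. The enzyme is built from core subunits that are conserved in bacteria and from accessory subunits that surround them, and its genes are divided between the nucleus and the mitochondrial genome. The 38 lines comprise 7 nuclear core subunits and 31 other members. Ndufa4 is counted because its symbol meets the rule, although its protein has since been assigned to cytochrome c oxidase.

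Of the 7 motifs searched in the members' promoters, the share that lay farthest from that of all genes over the whole window was for AAGATGGC, a form of the element bound by the factor YY1. RefSeq promoters (build GRCm38.p6, 250 bases before to 50 bases from the start) were found for 34 members, and AAGATGGC was present in 7 of these, or 20.6%. Among the 16312 genes of the table that had such a promoter and matched 1 protein-coding gene of GENCODE M21, 542 held it, or 3.3%. These hold every member with a promoter except Ndufb1, which did not match. In the bases before the start alone, AAGATGGC was in 0.0% of the members' promoters and 1.5% of all, and the share farthest from that of all genes was then for CCAAT (29.4% against 36.1%). The 7 sites are shown because they share strand, place relative to the RefSeq start, and an ATG annotated as a start codon. Each is printed 5′ to 3′ on the strand of its gene, with the match in capitals.
Ndufa3, chr7:3617384-3617413, plus strand: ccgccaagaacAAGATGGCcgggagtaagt
Ndufa9, chr6:126849097-126849126, minus strand: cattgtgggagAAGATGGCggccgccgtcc
Ndufb8, chr19:44555393-44555422, minus strand: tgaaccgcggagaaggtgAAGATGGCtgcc
Ndufc1, chr3:51408915-51408944, minus strand: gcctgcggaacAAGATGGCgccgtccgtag
Ndufs4, chr13:114388045-114388074, minus strand: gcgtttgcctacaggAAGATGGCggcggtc
Ndufs6, chr13:73328433-73328462, minus strand: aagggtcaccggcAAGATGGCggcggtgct
Ndufs7, chr10:80249462-80249491, plus strand: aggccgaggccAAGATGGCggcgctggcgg

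In all 7 members the match lay on the strand of the gene and after the RefSeq start of transcription. Starts can differ between annotations. GENCODE M21 begins the Ndufs7 gene at 80249121, before its RefSeq promoter, which runs from 80249199 to 80249498. In Ndufs4, Ndufs6 and Ndufc1, on the minus strand, the outermost GENCODE M21 start also lay before the RefSeq start. It was at 114388258, 73328542 and 51408988. Counted from these GENCODE starts, the matches would lie farther into the genes. Counted from the RefSeq start base as 1, the first base of the match was at position 23 in Ndufa3 and Ndufc1 and at 25 in Ndufs7. It was at 30 in Ndufa9, 34 in Ndufs6, 36 in Ndufs4 and 39 in Ndufb8. The ATG inside the match was an annotated start codon in the GENCODE M21 annotation in each of the 7. Across all genes with the letters, 241 of 542 had a match on the gene's strand after the start (44.5%), and the ATG was an annotated start codon in 164 (30.3%). These shares include the 7 complex I genes, and no test of the difference was made. Only Ndufs7 of the 7 is a core subunit, one that carries an iron-sulfur cluster next to the ubiquinone site. Ndufs4 and Ndufs6 are accessory subunits of the peripheral arm, Ndufa9 binds near the junction of the arms, and Ndufb8, Ndufc1 and Ndufa3 belong to the membrane arm.

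**Figure D1:**
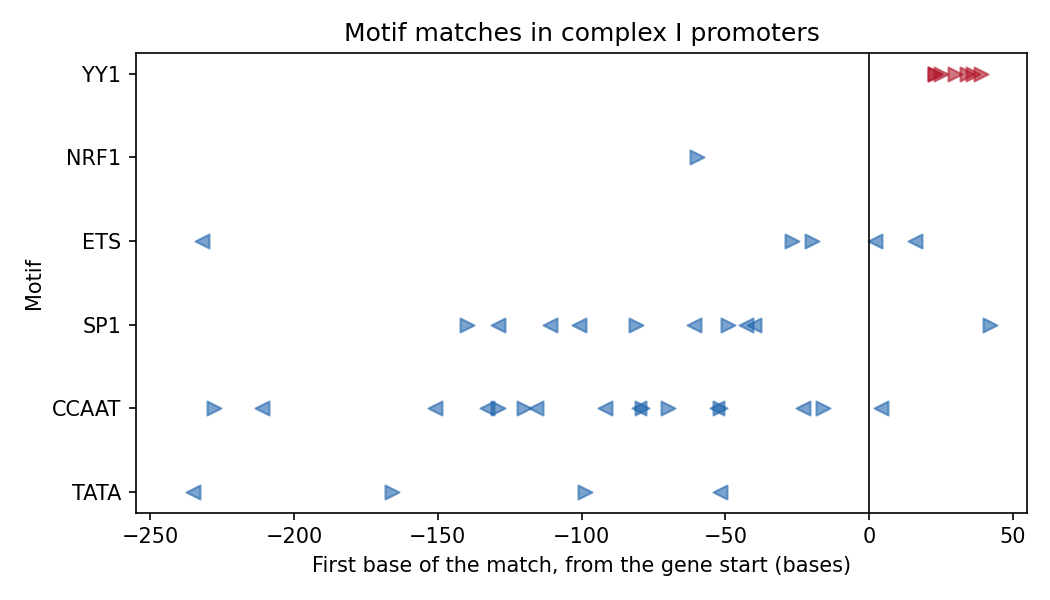
Positions of the matches to 6 of the motifs searched in the 34 complex I promoters, in bases from the RefSeq start of the gene, with 1 row per motif. Triangles to the right are matches on the gene's strand and triangles to the left matches on the other strand. The 7 YY1 matches lie together between positions 23 and 39.

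A match to the palindromic element of NRF1 (its letters are the capitals in the sequence printed below), a factor known for regulating nuclear genes of the respiratory chain, was present in 1 of the 34 promoters (2.9%) and in 227 of 16312 overall (1.4%). It belonged to Ndufa11, which encodes a membrane-arm subunit, and began 60 bases before the start, at position -60.
Ndufa11, chr17:56717692-56717721, plus strand: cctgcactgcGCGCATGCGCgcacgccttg

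CCGGAAG, the core of elements bound by ETS factors, GABPA among them, was present in 4 of 34 members (11.8%) and in 2029 of 16312 genes (12.4%). Its 4 promoters were those of Ndufb6, Ndufb7, Ndufs3 and Ndufs8. Ndufs3, a core subunit of the ubiquinone-side module, had a match on each strand, at positions -27 and 2. They are shown because it was the one member with a pair of matches to this element. The second reads as the reverse complement, CTTCCGG, on the strand printed.
Ndufs3 at -27, chr2:90904730-90904759, minus strand: cccgcgtccgcCCGGAAGaagagtcactgc
Ndufs3 at 2, chr2:90904702-90904731, minus strand: gcacatttccaCTTCCGGtccgtgcccttg

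For the other 4 motifs the gap to all genes was smaller than for AAGATGGC. GGGGCGGG, the GC box bound by SP1, was found in 9 of 34 members (26.5%) against 23.6% overall. CCAAT was found in 10 (29.4%) against 38.7%, and Ndufb11, an X-linked membrane-arm subunit, held 4 copies, all on the strand opposite to the gene. TATAAA was found in 4 members (11.8%) and in 2126 of all 16312 promoters. The match was on the gene's strand at -99 (Ndufs7) and -166 (Ndufa3). It was on the opposite strand at -52 (Ndufa7) and -235 (Ndufb7). TCAAGGTCA, the element of ESRRA, was found in 0 members and in 0.3% of all promoters. Both strands were searched for each motif, and 0 matches to different motifs overlapped in the members. A match describes letters only, and binding was not measured.

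**Figure D2:**
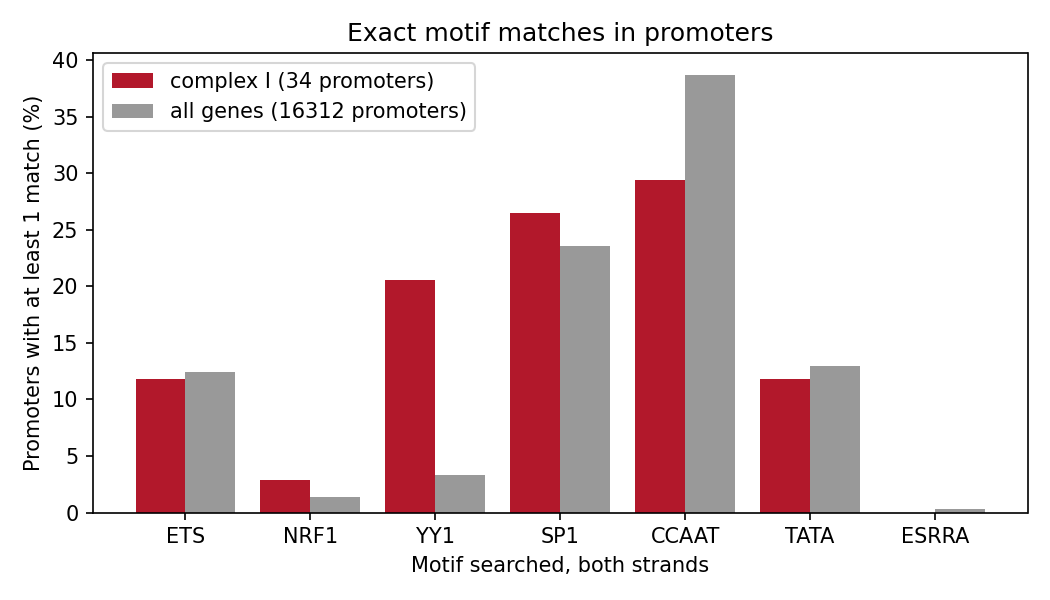
Percent of promoters with at least 1 exact match to each motif, on either strand, in complex I genes (34 promoters) and in the genes of the table with a promoter and a GENCODE M21 protein-coding match (16312). The bars differ most for YY1, at 20.6% and 3.3%.

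At the median, the base composition of the members lay between the quartiles of all promoters. The GC content of the 34 promoters ran from 45.3% in Ndufs4 to 70.7% in Ndufv2, the core subunit that holds an iron-sulfur cluster of the NADH-binding module. The median was 59.0%, beside 57.0% over all 16312, where the quartiles were 48.7% and 65.0%. The ratio of observed to expected CpG dinucleotides had a median of 0.78 and ran from 0.48 in Ndufc2 to 1.14 in Ndufa11. Over all promoters the median was 0.61, with quartiles of 0.24 and 0.84.

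The members had shorter annotated transcripts and fewer exons at the median than all genes. Of the 38, 37 matched 1 protein-coding gene of GENCODE M21 on the mm10 build. The line Ndufb1 did not match by that symbol. RefSeq places it on chromosome 12 from 101968096 to 101975738 and gives Ndufb1-ps as a synonym, the name GENCODE M21 uses for a non-coding locus there. For the transcript with the longest coding sequence, the members' median transcript length was 875 nucleotides, with a range from 351 in Ndufa3 to 4371 in Ndufb2. Over the 20383 table genes with such a match the median was 2651, with quartiles of 1600 and 4115. Median coding lengths were 447 nucleotides in the members and 1227 overall. The members had a median of 4 exons, from 2 in Ndufs5 to 19 in Ndufs1, against 7 overall. Their genomic spans ran from 2226 to 100464 bp with a median of 8379, beside a median of 18305 and quartiles of 7034 and 47302 overall. RPKM divides by gene length, so the length model the authors used bears on the level of genes this short. It is not given in the sources used here.

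Core genes had longer annotated coding sequences at the median than the other members. The 7 core genes had coding sequences of 636 (Ndufs8) to 2181 nucleotides (Ndufs1), with a median of 789. Ndufs1 encodes the large iron-sulfur subunit of the NADH-binding module, and Ndufs8 an iron-sulfur subunit on the path to ubiquinone. The 30 other matched members had a median of 402 and ran from 210 in Ndufa1 to 1404 in Ndufv3. Ndufv1, the flavin-binding subunit that oxidises NADH, had 1392 coding nucleotides. Among the 37 matched members Ndufa1 had the fewest codons, 70, stop codon not counted. Ndufs4, with 525 coding nucleotides, covered 100464 bp of chromosome 13 (114287795 to 114388258), the widest of the 37.

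**Figure D3:**
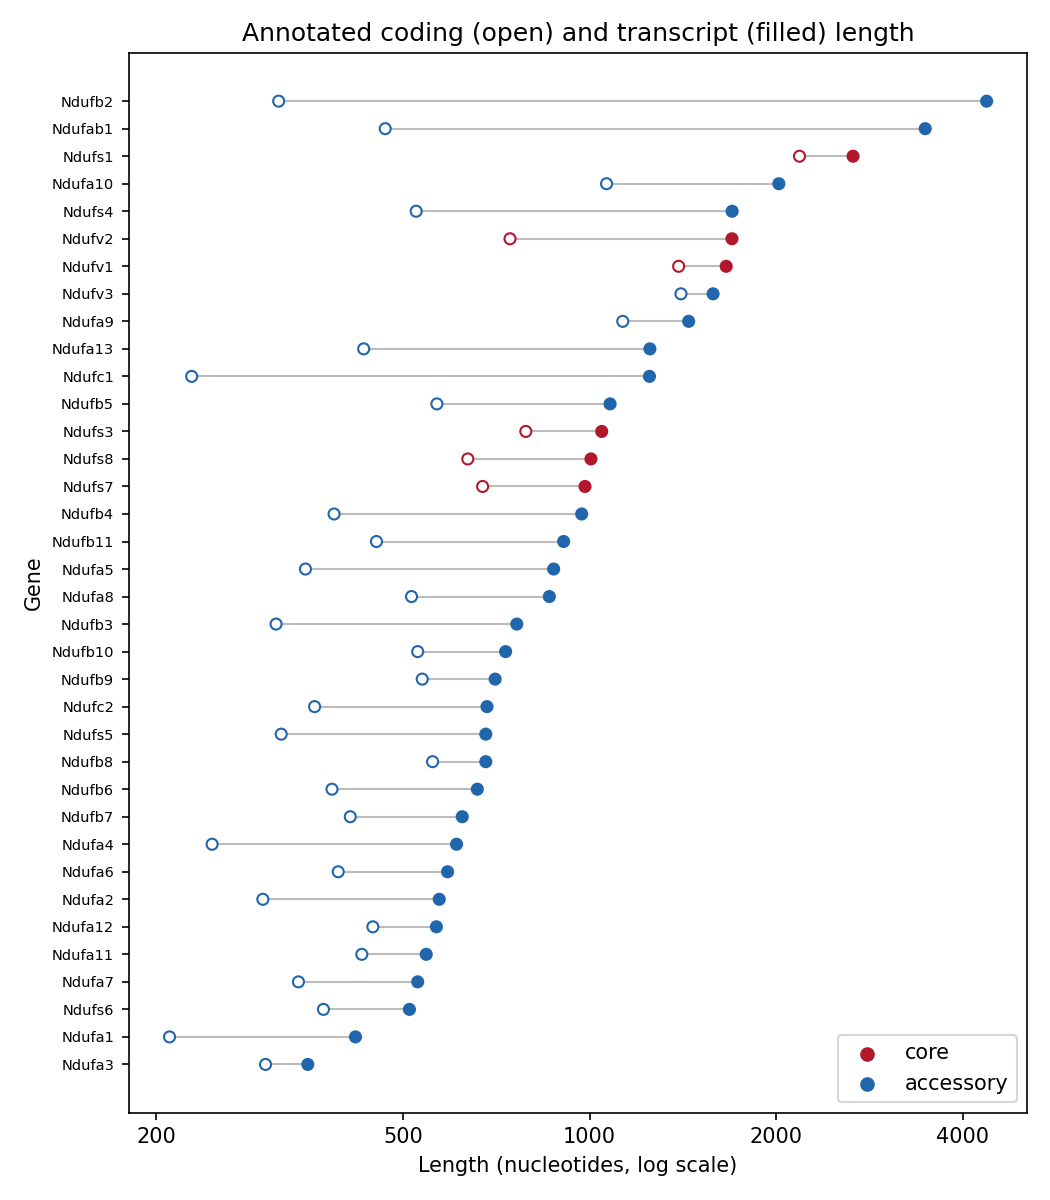
Annotated lengths of 36 of the 37 members matched in GENCODE M21, in nucleotides on a log axis, ordered by transcript length. Open points are coding length and filled points transcript length, in red for core and blue for other members; transcripts run from 351 (Ndufa3) to 4371 (Ndufb2).

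The 37 genes were spread over 15 chromosomes, with 5 on chromosome 17 and 4 each on chromosomes 1 and 6. Ndufa1 and Ndufb11 lie on the X chromosome. Ndufs8 (3908863 to 3912774) and Ndufv1 (4007384 to 4012806), both core subunits, lie near each other on the minus strand of chromosome 19.

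Many members started close to a gene on the opposite strand. Starts here were the outermost GENCODE M21 starts of each gene, not the RefSeq starts from which motif positions were counted. In 17 of 37 (45.9%) a protein-coding gene of the table began on the other strand within 1 kb of the member's start, and over all 20383 genes this share was 10.6%. Starts were 8 bp apart for Ndufs1 and Eef1b2, a translation elongation factor gene, and 10 bp apart for Ndufa7 and Rps28, which encodes a ribosomal protein. Ndufs6 started 29 bp from Mrpl36, and Ndufb5 615 bp from Mrpl47, both genes of the mitochondrial ribosome. Ndufs3 started 87 bp from Kbtbd4, a gene of a Kelch and BTB domain protein. The share was not tested.

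Overlap with other genes could bear on how reads were assigned. Whole gene spans were compared, introns included, and overlap of exons was not computed. A gene of the table on the opposite strand overlapped 12 of the 37 members (32.4%), against 20.8% of all genes. Among these 12 were Ndufb2 with Braf and Ndufa3 with Tfpt. On the same strand, Ndufa13 overlapped Yjefn3 and Ndufa10 overlapped Mir6900, both genes of the table. Whether the authors' counting used strand is not given in the sources used here, and Smart-seq2, the library method in the labels, does not mark strand. In addition the table listed Ndufa11b and Ndufb4c, annotated as processed pseudogenes named for Ndufa11 and Ndufb4, as separate lines. Reads shared with such copies could fall to either line.

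The rest of the respiratory chain was looked up by exact symbol, and other spellings of a symbol were not searched. None of the 7 mitochondrially encoded complex I genes had a line under the symbol searched, mt-Nd1 for example (0 of 7). Of 19 assembly factor genes 18 had a line, all but Coa1. Complex II had 4 of 4, complex III 9 of 9 and complex IV 10 of 10 of the genes listed for them. AAGATGGC was present in 3 of 15 assembly factor promoters, 0 of 3 for complex II, 0 of 5 for complex III and 0 of 8 for complex IV. It was also in 1 of 6 promoters of a list of mitochondrial regulator genes. The share over all genes was 3.3%, so lists this short cannot show whether the letters are absent from a complex. These counts were not tested.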

How the data were processed

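RNA of 8 libraries, 4 WT and 4 EPOP KO, was sequenced after Smart-seq2 preparation, per the labels' protocols. The table deposited by the authors holds a column of gene symbols, which are other than measurements, and 8 columns of RPKM, per its name. TopHat, DESeq2 and mm10 are named in the submitters' processing notes, with no role or version. The 8 value columns have no names and were not used. Their ranges and sums, and the values of the first and last lines, were seen when the unit was established. The planned limma test was not run.

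Members and lists were chosen with earlier results of these data known, and all members could be named; 1 member is counted but its own values are not reported here. Symbols were matched to GENCODE M21 (GRCm38, the same build as mm10). The protein-coding transcript with the longest coding sequence stood for each gene. Promoters came from the RefSeq table (GRCm38.p6); of several starts, the one nearest that transcript's start was used. The 7 motifs were searched as exact letters on both strands with Python 3.11.15 and pandas 2.3.3. In simulated sequences the search found motifs at the positions where they had been planted. The strand of a match, genome coordinates and start codons were not tested in this way. Coordinates count from 1. Sequencing depth was not analysed here. Alternatives were the bases before the start alone, and any RefSeq start of a gene.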

Additional observations from a re-analysis of the deposited data

How the results depend on the processing

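Other pseudocounts, filters, scalings, a robust variance and leaving out each replicate were not run, since the genotypes were not compared. No paired analysis was possible because the unnamed columns carry no replicate numbers, and the labels of the groups share only the number 11. The motif searches were repeated with settings chosen after seeing the data. With only the bases before the start, the share of complex I promoters with the YY1 letters went from 20.6% to 0.0%, and that of all promoters from 3.3% to 1.5%; by construction this setting leaves out the region in which the 7 matches lie, and CCAAT then lay farthest from all promoters. The shares for the other 6 motifs stayed within the 95% exact binomial interval of the value reported. This says little, since the bases before the start are part of the same window in the same 34 promoters. Allowing any RefSeq start of a gene says little, since only 2 members had more than 1. Promoters were found for 34 of 38 members, which limits the motif shares.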
